A study of Rattus norvegicus with 6 samples.

Results

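The 9 genes described here, CLU, APOE, APOD, ABCA1, ABCG1, LRP1, NR1H2, NR1H3 and SREBF1, cover the apolipoproteins and the cholesterol efflux route of the nervous system. They were chosen by symbol from the 17648 rows of the expression matrix, and all 9 were found. The choice was made with a readout of the same contrast known, namely that ABCG1 was higher and CLU lower in the siR-GAL3 group. The differences of these genes between groups are therefore given as a description, with no test.

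In the central nervous system, lipoproteins are assembled locally, mainly by astrocytes and microglia, around APOE and CLU (also called APOJ). The transporters ABCA1 and ABCG1 move cholesterol out of the cell onto these particles, and receptors such as LRP1 take the particles up again. Oxysterols, which are oxidised forms of cholesterol, activate the liver X receptors NR1H2 (LXR beta) and NR1H3 (LXR alpha). These receptors pair with retinoid X receptors and drive transcription of ABCA1, ABCG1, APOE and SREBF1.

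RNA was sequenced from spinal cord neuron cultures of neonatal Sprague-Dawley rats in 6 libraries. Small interfering RNA (siRNA) against GAL3, the galectin-3 gene LGALS3, was transfected for the 3 siR-GAL3 libraries, and control siRNA for the 3 siR-Con libraries. The question was which transcripts differed when GAL3 was knocked down in glutamate-injured neurons. All cultures were kept for 3 days, received 10 μM glutamate for 1 h and stood a further 16 h without it. Ara-C, which kills dividing cells, was given to raise neuron purity. The sample labels differ from this account of the study's text, since they give saline in place of glutamate for siR-Con and call siR-GAL3 a knockout, so a difference in glutamate cannot be told apart from the siRNA if the labels are right. The methods say in general that experiments were repeated independently, but neither they nor the labels say whether the libraries of a group are separate cultures, and any p-value then measures only the spread between these libraries.

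The values are expression values on a linear scale that the authors derived from FPKM, which divides by transcript length, so levels of different genes are set side by side per length. The authors' further correction left 3.86% of all values below 0, and the depth of each library is unknown. The column totals lay between 64312.6 and 64713.6. LGALS3 (values here and throughout in the order of replicates 1, 2 and 3) was 77.41, 54.43 and 62.43 in siR-Con against -1.644, 32.27 and 18.52 in siR-GAL3, so that the targeted gene was lower in every library labelled siR-GAL3. Exactly equal values divided the libraries into 3 sets. Set 1 was made of replicate 1 of both groups, set 2 of replicate 3 of both groups together with siR-Con replicate 2, and set 3 of siR-GAL3 replicate 2 alone. On the first principal component, with 65.22% of the variance, siR-GAL3 replicate 2 lay at 27.88 and the other libraries between -8.518 and -1.937.

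The cells did not have the profile of neurons alone. Summed over 10 astrocyte markers, the level was 932.6 to 1072 in siR-Con and 805.7 to 870.1 in siR-GAL3, and GFAP, the astrocyte filament gene, had the highest mean of them at 589.6. The oligodendrocyte lineage markers summed to 1055 to 1126 in siR-Con and 1063 to 1385 in siR-GAL3. The 10 neuron markers summed to 25.14 to 29.41 and 23.7 to 28.88, most of it MAP2 with a mean of 16.95, while 2 of them, SLC17A6 and CHAT, had means under 0.1. In such bulk samples, fewer cells of a type and less RNA per cell cannot be told apart.

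The promoters below are shown because the LXR pathway joins these genes through their regulatory sequence. RefSeq promoters of 300 bases, from 250 before the annotated start to 50 after it, were at hand for 7 of the 9 genes in 10 entries, and CLU and ABCG1 were not matched. LXR with its partner is known to bind a direct repeat, 2 copies of AGGTCA with 4 bases between them. With up to 3 mismatches over the 12 defined positions and both strands read, ABCA1 was the only one of the 7 genes to hold this repeat, and 21.9% of 33469 rat promoters did so. With up to 4 mismatches, 5 of the 7 genes and 77.6% of all promoters held it, so a match at this length is common. The ABCA1 match, with 3 mismatches, read TGACCGGTAGTAACCC on the gene's strand and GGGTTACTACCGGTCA as the repeat, and began at position -70, where the start base is 0. It overlapped the longest stretch that the ABCA1 promoter shared with another promoter of these genes, 13 bases that it had in common with the second annotated start of SREBF1. The stretch began at -63 in ABCA1 and at -202 in SREBF1 and was held by 2 of the 33469 promoters. These are the 2 promoters it was taken from, and as it was picked as the longest match, nothing is read from that count. Both sequences are from assembly GRCr8, minus strand, written 5′ to 3′ along the gene, and capitals mark the shared 13 bases.
ABCA1, chr5:72596424-72596723: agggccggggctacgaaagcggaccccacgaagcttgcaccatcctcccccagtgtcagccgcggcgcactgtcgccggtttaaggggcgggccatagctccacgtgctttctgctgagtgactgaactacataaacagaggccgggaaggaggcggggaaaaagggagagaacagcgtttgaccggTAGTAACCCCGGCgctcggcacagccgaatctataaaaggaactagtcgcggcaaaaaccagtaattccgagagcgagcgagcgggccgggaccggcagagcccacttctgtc
SREBF1, chr10:45518961-45519260: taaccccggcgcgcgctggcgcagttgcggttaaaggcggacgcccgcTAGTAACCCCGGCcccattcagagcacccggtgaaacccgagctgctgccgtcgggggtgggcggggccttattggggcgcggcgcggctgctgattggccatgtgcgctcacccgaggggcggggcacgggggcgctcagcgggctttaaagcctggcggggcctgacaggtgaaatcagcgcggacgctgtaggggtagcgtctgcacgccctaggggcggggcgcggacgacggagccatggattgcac
The first annotated start of APOE held 9 of these bases, TAGTAACCC, from position -169, as did 26 promoters in all. These matches describe the letters only. The data hold no measure of LXR binding.

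The levels of the 9 genes spanned a wide range, from APOE with the tenth highest mean of all rows to NR1H3, below the mean of 1 that a gene needed to be tested. By mean expression value over the 6 libraries, the order was APOE (424.2), CLU (61.82), APOD (13.56), ABCA1 (11.53), LRP1 (9.229), NR1H2 (3.70), ABCG1 (2.974), SREBF1 (2.701) and NR1H3 (0.5802). APOE was 6.86 times CLU, and CLU was 4.56 times APOD. The ranges over the libraries overlapped between APOD and ABCA1, between ABCA1 and LRP1, between NR1H2 and ABCG1, and between ABCG1 and SREBF1, so the order within these neighbours is not separated by the libraries. The secreted apolipoproteins APOE and CLU thus stood above the transporters and the receptor, and the nuclear factors lay lowest together with ABCG1.

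**Figure D1:**
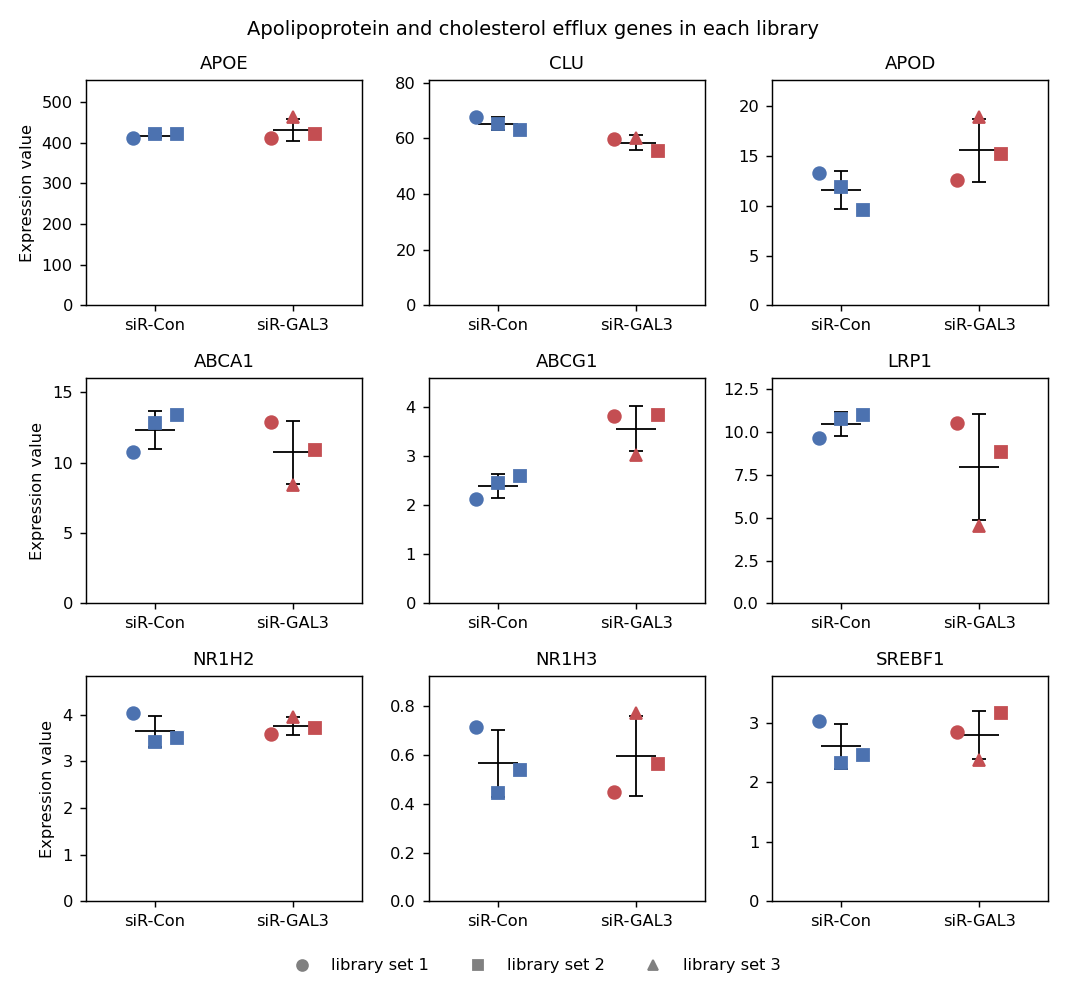
Expression value (linear, derived from FPKM) of each of the 9 genes in the 6 libraries, in blue for siR-Con and red for siR-GAL3, with circles for set 1, squares for set 2 and the triangle for siR-GAL3 replicate 2, the only library of set 3. Horizontal bars are group means and error bars the SD (n = 3). Only ABCG1 and CLU have no overlap between the groups, and siR-GAL3 replicate 2 is the lowest library for LRP1 at 4.535 and for ABCA1 at 8.428.

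Of the 9 genes, 8 passed the filter and were fitted, 5 with a higher and 3 with a lower mean log2 value in siR-GAL3. Their median log2 fold change was 0.04, against 0.00 over all 8495 genes tested. In 2 of the 8, ABCG1 and CLU, the groups did not overlap, as was the case for 20.5% of all genes tested. The choice of genes used this contrast, so nothing is read from that count. Over the whole table, 0 genes (0%) had an adjusted p under 0.05 in limma with Benjamini-Hochberg adjustment, with 0.0695 as the lowest value. The unadjusted p was below 0.05 in 736 genes (8.66%), 375 of them higher (4.41%) and 361 lower (4.25%), while 27 genes (0.318%) met the study criteria of |log2 fold change| > 1 and an unadjusted P < 0.05, which the methods state for other datasets of the study. None of the 9 genes was among the 27. The paper reports a larger set of differentially expressed genes for this contrast. It names CLU among those it linked to GAL3 that were not up-regulated. The count depends on the scale, since 367 genes passed when the same limits were put on values without log transformation. On those values CLU differed by -6.784, and whether it was among the 367 is not shown here.

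APOE, the main lipid carrier protein of the brain and spinal cord, was listed at 410.5, 420.7 and 420.7 in siR-Con and at 410.5, 462.2 and 420.7 in siR-GAL3. These are only 3 distinct values, 1 for each library set, and within set 1 and within set 2 the difference between groups was exactly 0. The means were 417.3 ± 5.89 and 431.1 ± 27.4 (SD, n = 3 each), with a log2 fold change of 0.05 ± 0.07 (SE). The fold change rested on siR-GAL3 replicate 2 and on how the sets fell between the groups, and without that library it was -0.01 on the log2 scale. The SD of APOE is then the spread between library sets and not between replicates. Of the 8495 genes tested, only APOE and COX1, a mitochondrial cytochrome oxidase gene noted after its values were seen, were constant within both sets, whereas 675 of all 17648 rows were. COX1 was listed at 1465 in 5 libraries and at 1197 in siR-GAL3 replicate 2. None of the other 8 genes had a value that recurred in a second library.

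CLU, a secreted chaperone and apolipoprotein, was 67.56, 65.22 and 62.87 in siR-Con and 59.7, 60.22 and 55.38 in siR-GAL3. The highest siR-GAL3 library, replicate 2, was still lower than the lowest control, so the groups did not overlap. The means were 65.22 ± 2.34 and 58.43 ± 2.66 (SD, n = 3 each), a difference of -10.4%, and the log2 fold change was -0.16 ± 0.07 (SE). The difference was -11.6% within set 1 and -13.5% within set 2, so that CLU was lower on both sides of the division.

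APOD, a lipocalin of glia and fibroblasts that carries arachidonic acid and other small lipids, was 13.31, 11.85 and 9.56 in siR-Con and 12.54, 18.87 and 15.23 in siR-GAL3. The groups overlapped, because siR-Con replicate 1 was above siR-GAL3 replicate 1. The means were 11.57 ± 1.89 and 15.55 ± 3.17 (SD, n = 3 each) and the log2 fold change was 0.39 ± 0.17 (SE). Within set 1 the difference was -5.76%, and within set 2 it was 42.2%. The sign of APOD thus differed between the sets, and the highest value was that of siR-GAL3 replicate 2, without which the log2 fold change was 0.25.

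ABCG1, the transporter that passes cholesterol to lipoprotein particles already formed, was 2.118, 2.455 and 2.60 in siR-Con and 3.814, 3.026 and 3.829 in siR-GAL3. Every siR-GAL3 library lay above every siR-Con library, and siR-GAL3 replicate 2 was the nearest to the controls. The means were 2.391 ± 0.247 and 3.556 ± 0.459 (SD, n = 3 each), a difference of 48.7%, and the log2 fold change was 0.42 ± 0.10 (SE). It was 80.0% higher in siR-GAL3 within set 1 and 51.5% higher within set 2. Leaving out siR-GAL3 replicate 2 widened the log2 fold change to 0.51.

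ABCA1, which loads cholesterol and phospholipid onto lipid-poor apolipoproteins and starts the particle, was not set apart between the groups as ABCG1 was. It was 10.78, 12.78 and 13.36 in siR-Con and 12.91, 8.428 and 10.91 in siR-GAL3, with overlapping groups. The means were 12.31 ± 1.35 and 10.75 ± 2.24 (SD, n = 3 each) and the log2 fold change was -0.19 ± 0.15 (SE). Set 1 gave a difference of 19.7% and set 2 one of -16.5%, opposite in sign, and without siR-GAL3 replicate 2 the log2 fold change was -0.04. The ratio of ABCG1 to ABCA1 was 0.197, 0.192 and 0.195 in siR-Con and 0.295, 0.359 and 0.351 in siR-GAL3. The 3 controls were nearly alike, at 0.194 ± 0.00224, and all lay below the 3 siR-GAL3 libraries, at 0.335 ± 0.0346 (SD, n = 3 each). ABCG1 is part of the choice of these genes, and the ratio carries that choice with it.

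LRP1, the large endocytic receptor that takes up APOE particles, was 9.679, 10.79 and 10.99 in siR-Con and 10.55, 4.535 and 8.831 in siR-GAL3. The siR-GAL3 libraries were widely scattered, with replicate 1 inside the control range, and the SE of 0.25 on the log2 scale was the largest of the 8 genes. The means were 10.49 ± 0.707 and 7.973 ± 3.10 (SD, n = 3 each), and the log2 fold change of -0.42 became -0.11 without siR-GAL3 replicate 2. The difference was 9.03% within set 1 and -18.9% within set 2. The lower mean of LRP1 thus rested mostly on 1 library.

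The oxysterol receptors and SREBF1 showed no separation of the groups. NR1H2 was 4.034, 3.414 and 3.498 in siR-Con and 3.583, 3.961 and 3.709 in siR-GAL3, with means of 3.649 ± 0.336 and 3.751 ± 0.193 (SD, n = 3 each). NR1H3 was 0.7135, 0.4442 and 0.5399 in siR-Con and 0.4496, 0.7705 and 0.5634 in siR-GAL3, and was not fitted because its mean was below 1. NR1H2 was thus the more abundant receptor in each library, between 5.14 and 7.97 times NR1H3, and this ratio overlapped between the groups. SREBF1, which encodes the SREBP-1 factor of fatty acid synthesis, was 3.031, 2.332 and 2.456 in siR-Con and 2.85, 2.376 and 3.161 in siR-GAL3. Its means were 2.606 ± 0.373 and 2.796 ± 0.396 (SD, n = 3 each), and its log2 fold change of 0.07 ± 0.11 (SE) was smaller than its error, as was that of NR1H2 at 0.03 ± 0.08. In set 1 all 3 nuclear factors were lower in siR-GAL3, and in set 2 all 3 were higher. SREBF1 differed by -5.98% in set 1 and by 32.0% in set 2.

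**Figure D2:**
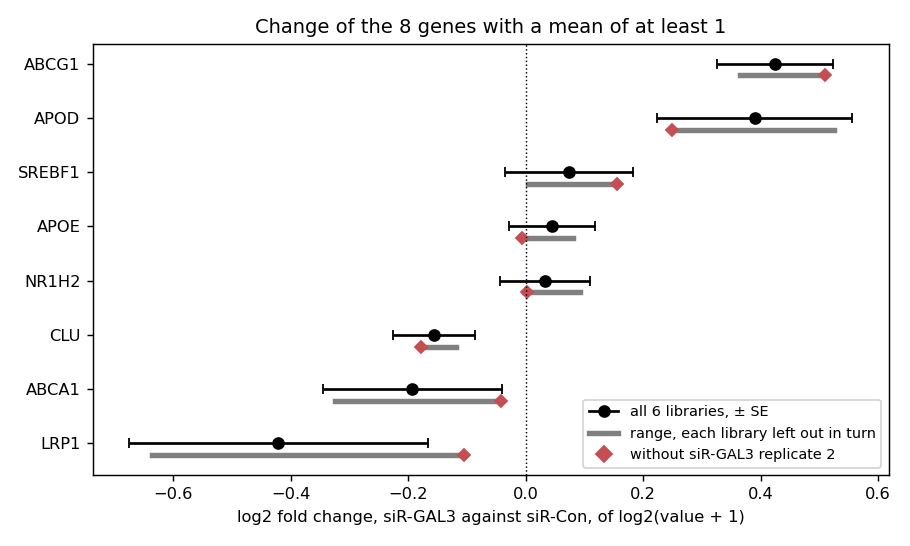
Log2 fold change of log2(value + 1), siR-GAL3 against siR-Con, of the 8 genes fitted. Black points and bars are the estimate and its SE from all 6 libraries, grey bars the range when each library was left out in turn, and red diamonds the estimate without siR-GAL3 replicate 2. ABCG1 stays between 0.36 and 0.51 and CLU between -0.18 and -0.12, while LRP1 moves between -0.64 and -0.11.

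Over the whole table, siR-GAL3 replicate 2 was higher than the other 5 libraries for short genes and lower for long genes. The genes tested were divided by genomic span into 4 length classes of 2056 genes each. The log2 value in this library minus the mean of the other 5 had a median of 0.25 in the shortest class and of -0.21 in the longest. LRP1 and ABCA1 both belong to the longest class, and their values were -1.01 and -0.48. LRP1 was lower in this library, relative to the others, than 98.9% of the genes tested, and ABCA1 than 90.8%. APOD went the other way, at 0.57, higher than 97.2% of genes. CLU and ABCG1, of the third class, stood at -0.04 and 0.05, where the median of that class was -0.03. The part of gene length in the values of LRP1 and ABCA1 was not tested.

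**Figure D3:**
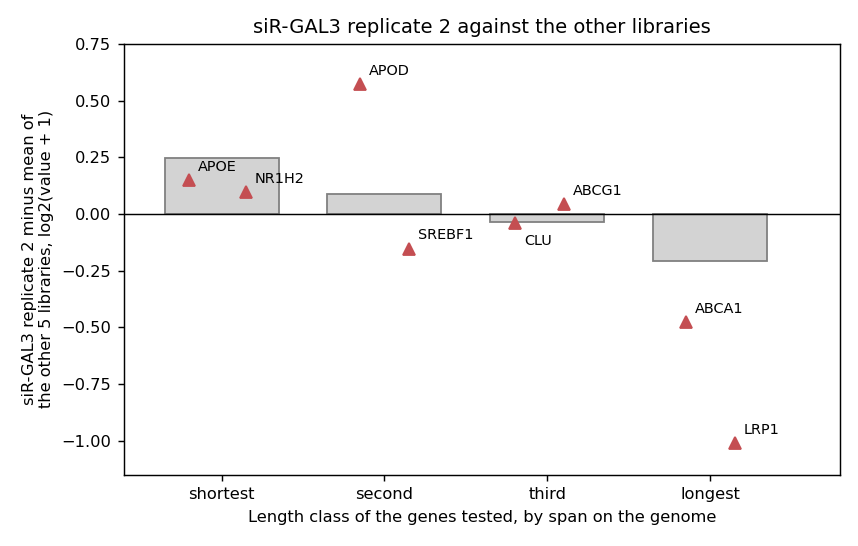
Log2(value + 1) in siR-GAL3 replicate 2 minus the mean of the other 5 libraries (y axis), for the tested genes divided into 4 length classes by genomic span, from the shortest to the longest (x axis). Grey bars are the medians of 2056 genes each, and red triangles the 8 genes, of which LRP1 at -1.01 and ABCA1 at -0.48 lie below the bar of their class.

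The wider pathway was described with 105 related genes on 9 lists, of which 101 were in the matrix and 67 were tested. Among the 67, 25 were higher and 42 lower in siR-GAL3, and the median log2 fold change was -0.06. This direction rested on siR-GAL3 replicate 2, since without it 36 were higher and 31 lower, with a median of 0.01. At an unadjusted p below 0.05 stood 9 of them (13.4%, against 8.66% of all genes tested), 4 higher and 5 lower, and the groups did not overlap in 12 (17.9%, against 20.5% of all genes tested). No related gene had an adjusted p under 0.05, so none is said to have changed, and the values below are for the genes of each list with the smallest p. None of the 15 other apolipoproteins reached a mean of 1, the highest being 0.567, and 10 of them had means under 0.1. APOE, CLU and APOD were therefore the apolipoproteins of these cultures at the level that could be tested.

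Among the lipoprotein enzymes, all siR-GAL3 libraries lay above the controls for LPL and below them for PLTP. Such a lack of overlap was found in 20.5% of all genes tested, and both were named for the smallest p of their list. LPL, which hydrolyses the triglycerides of lipoproteins, was 3.305, 2.90 and 2.391 in siR-Con and 5.063, 4.73 and 4.651 in siR-GAL3. All 3 siR-GAL3 libraries lay above the controls, and the log2 fold change was 0.60 (adjusted p = 0.136 in limma). With the library set as a block LPL had an adjusted p of 0.0276 in limma, and without siR-GAL3 replicate 2, which that block also leaves without weight, one of 0.0254. PLTP, which transfers phospholipid between particles, was 11.66, 15.17 and 15.72 in siR-Con and 10.05, 10.77 and 7.454 in siR-GAL3. It was lower in every siR-GAL3 library, with a log2 fold change of -0.55 (adjusted p = 0.389 in limma). LCAT, which esterifies cholesterol on the particle, had a log2 fold change of -0.28 with overlapping groups (-0.41 without siR-GAL3 replicate 2, adjusted p = 0.0347 in limma). Of 5 enzymes and regulators tested, 2 were higher and 3 lower.

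Most other lipoprotein receptors lay lower in siR-GAL3. Of 12 genes tested on the receptor list, which also holds the receptor chaperone LRPAP1, 10 were lower and 2 higher (9 and 3 without siR-GAL3 replicate 2). The median log2 fold change was -0.13 (-0.07 without that library). At an unadjusted p under 0.05 in limma stood 1 of them, or 8.33%, near the 8.66% of all genes tested. This was SORT1, the sortilin receptor that also binds APOE, at 4.923, 5.676 and 6.091 in siR-Con and 3.988, 4.687 and 3.83 in siR-GAL3, a log2 fold change of -0.34 (adjusted p = 0.383 in limma, and 0.0433 without siR-GAL3 replicate 2). LRP4 and LRP10 had log2 fold changes of -0.28 (-0.18 without siR-GAL3 replicate 2) and -0.14, both with overlapping groups. Among the 4 other transporters tested, 3 were lower and none had an unadjusted p under 0.05, whereas 3 were higher without siR-GAL3 replicate 2. SCARB1, the HDL receptor that exchanges cholesteryl ester, was at -0.11. ABCA3 and ABCA8A were at -0.18 and 0.06, and ABCA8A is one of a cluster of close copies whose reads may be shared.

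Around the LXRs, the direction of most genes depended on siR-GAL3 replicate 2, while MYLIP lay higher in each siR-GAL3 library. All 4 tested partners and co-repressors had a lower mean log2 value in siR-GAL3 and a median log2 fold change of -0.25, but without siR-GAL3 replicate 2 they were 2 higher and 2 lower, with a median of -0.05. The retinoid X receptor gene RXRA was 2.865, 3.306 and 3.213 in siR-Con and 2.852, 1.838 and 2.542 in siR-GAL3, and although the groups did not overlap, its adjusted p was 0.574 (limma) and siR-GAL3 replicate 1 lay just below the lowest control. The log2 fold change of RXRA was -0.29, and -0.16 without siR-GAL3 replicate 2. RXRB and the co-repressor NCOR1 had log2 fold changes of -0.14 and -0.21, and NCOR1 was at 0.04 without siR-GAL3 replicate 2. Of 7 other LXR target genes, 4 were higher and 3 lower, or 6 and 1 without this library. MYLIP, the ligase that marks the LDL receptor for degradation, was 0.9446, 0.9755 and 0.9223 in siR-Con and 1.21, 1.209 and 1.331 in siR-GAL3, a log2 fold change of 0.21 (adjusted p = 0.333 in limma). MYLIP did not overlap between groups, as was the case for 20.5% of all genes tested. Its siR-Con mean was 0.9474, below the filter of 1, so it was tested only because its siR-GAL3 values were higher. SCD, the stearoyl-CoA desaturase, was at -0.11 with overlapping groups, so MYLIP and SCD did not share a direction.

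Cholesterol synthesis genes went both ways. The 18 synthesis genes tested had a median log2 fold change of 0.01, with 10 higher and 8 lower (8 and 10 after median-ratio scaling, where the median was -0.01, and 7 and 11 without siR-GAL3 replicate 2). The groups did not overlap in 3 of them (16.7%, against 20.5% of all genes tested), so nothing is read from that count. These were HMGCS1, SQLE and SC5D (the last named after its values were seen), all lower. HMGCS1, which makes HMG-CoA, was 32.93, 30.97 and 36.93 in siR-Con and 29.02, 26.64 and 26.68 in siR-GAL3, a log2 fold change of -0.28 (adjusted p = 0.437 in limma). SQLE, the squalene epoxidase, and TM7SF2, a sterol reductase, had log2 fold changes of -0.13 without overlap and of 0.19 with overlap (0.10 without siR-GAL3 replicate 2). Of 6 genes of SREBP processing, 5 were lower and 1 higher, which turned to 1 lower and 5 higher without siR-GAL3 replicate 2, and none had an unadjusted p under 0.05 in either. INSIG2, which holds SREBP in the endoplasmic reticulum, was at 0.14 without overlap, SCAP, its escort, at -0.16 (-0.07 without siR-GAL3 replicate 2), and SREBF2, the main factor for synthesis genes, at -0.08. SREBF2 was at 0.01 without siR-GAL3 replicate 2.

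Among 11 genes of trafficking, storage and oxysterol metabolism, 5 were higher and 6 lower, or 8 and 3 without siR-GAL3 replicate 2. TSPO, a mitochondrial cholesterol-binding protein used as a marker of activated glia, was 1.068, 0.7438 and 0.5896 in siR-Con and 1.453, 1.829 and 1.626 in siR-GAL3. All siR-GAL3 libraries were above the controls, with a log2 fold change of 0.56 (adjusted p = 0.178 in limma). The siR-Con mean of TSPO was 0.8004, below the filter of 1, so it was tested only because its siR-GAL3 values were higher. LIPA, the lysosomal acid lipase that frees cholesterol from its esters, was 7.61, 8.154 and 7.988 in siR-Con and 7.262, 6.832 and 6.744 in siR-GAL3, a log2 fold change of -0.17 (adjusted p = 0.542 in limma). CYP7B1, which breaks down oxysterols, was at 0.11 with overlapping groups.

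**Figure D4:**
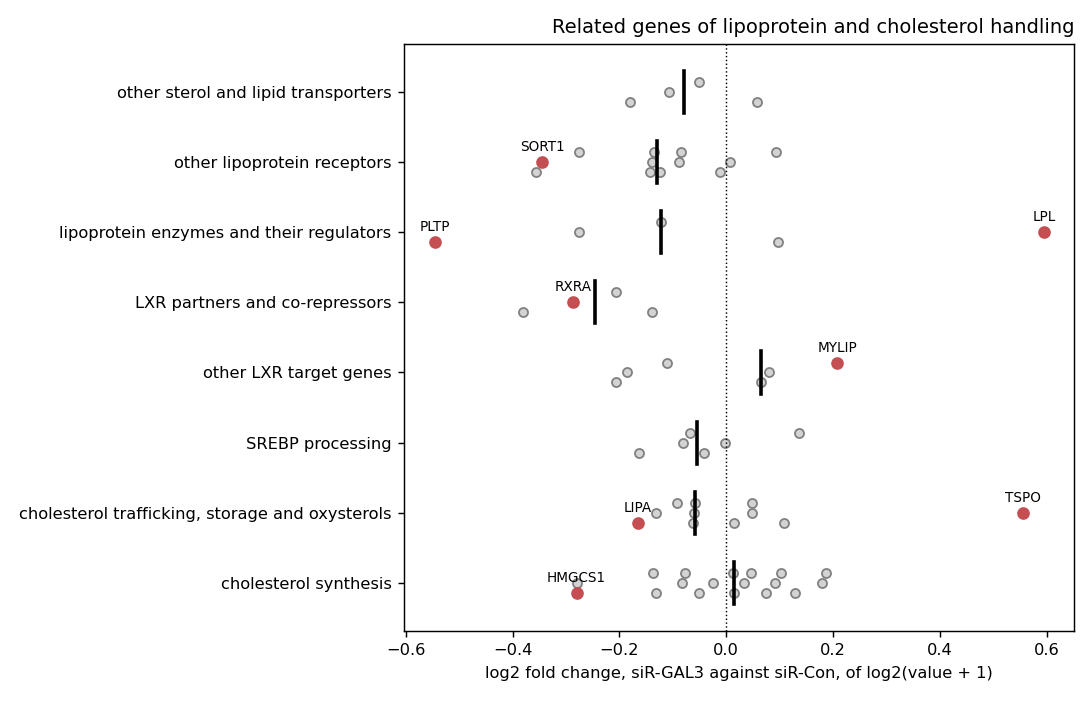
Log2 fold change of log2(value + 1), siR-GAL3 against siR-Con (x axis), of the related genes tested, by list (y axis). Each point is a gene, 1 of the 67 genes is not drawn, red points with a name have an unadjusted p under 0.05 in limma, and black bars are list medians. The red points run from PLTP at -0.55 to LPL at 0.60, and no gene had an adjusted p under 0.05.

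Markers of microglia, astrocytes and fibroblasts were not at the same level in the groups, although none had an adjusted p under 0.05 in limma. Over all genes tested, 4.41% were higher and 4.25% lower at an unadjusted p under 0.05. Of 11 microglia markers tested, 10 were higher in siR-GAL3 and 6 had an unadjusted p under 0.05. The sum over all 12 markers was 117.0 to 139.8 in siR-Con and 145.8 to 167.8 in siR-GAL3. Most of this sum came from C1QA, C1QB and C1QC, with means of 24.76, 34.80 and 35.67. CX3CR1, P2RY12 and CSF1R overlapped between the groups, with log2 fold changes of 0.02, 0.02 and 0.08. None of the 12 was at 0 in all libraries. ABCG1, LPL and TSPO were higher in the same libraries in which this sum was higher, and its part in their values was not tested. ABCG1 was chosen with this contrast known, and LPL and TSPO were named for the smallest p of their lists. The match with the sum follows from that choice, and 20.5% of all genes tested had no overlap between groups, so nothing is read from it. Of 9 astrocyte markers tested, 7 were lower and 4 of them had an unadjusted p under 0.05. The sum over all 10 was lower in every siR-GAL3 library, as CLU and PLTP were, but GFAP carried it. Without GFAP, which was left out after its values were seen, the sum was 314.8, 351.3 and 361.6 in siR-Con and 347.0, 294.1 and 291.0 in siR-GAL3, and the groups overlapped. Of 5 fibroblast markers tested, 4 were lower, 3 with an unadjusted p under 0.05. Their sum was 43.05 to 50.64 in siR-Con and 33.03 to 38.09 in siR-GAL3. The collagen genes COL1A1 and COL3A1, with means of 16.68 and 16.19, made up most of it. PDGFRB was also lower without overlap, while LUM and DCN overlapped between the groups and DCN had the higher mean in siR-GAL3. Without siR-GAL3 replicate 2, the same numbers of microglia, astrocyte and fibroblast markers were higher and lower. The oligodendrocyte lineage markers overlapped between groups, and none of 3 endothelial markers reached a mean of 1. Of 4 tested neuron markers, 1 had an unadjusted p under 0.05. This was STMN2, whose siR-Con mean of 0.8216 was below the filter of 1, so it was tested only through its higher siR-GAL3 values. The part of the astrocyte and fibroblast markers in the values of CLU and PLTP was not tested. CLU and PLTP were also picked through this contrast, so nothing is read from their match with these sums.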

How the data were processed

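RNA of 6 libraries, 3 siR-Con and 3 siR-GAL3, had been aligned with STAR, counted with HTSeq and converted to FPKM by the authors. A removal of batch effects, a standardization and a correction of differences within groups followed, with tools not named. The deposited values are thus linear expression values and no longer FPKM, since 4090 of 105888 were below 0. Batch removal can tie the values of libraries to each other, and the correction within groups can narrow the SD. The genome build is not given in the sources used here. The labels name ribosomal RNA depletion and the supplement poly-T selection, and the sequencer also differs between sources. Groups were taken from the labels' library names.

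Values below 0 were set to 0, which touched 24 of the genes tested, and the 8495 of 17648 genes whose mean reached 1 entered limma 3.58.1 (R 4.3.3) with an intensity trend on log2(value + 1), and p-values were adjusted by the Benjamini-Hochberg method over all of them. Fold changes on this scale understate the change of low genes. FPKM had been planned as the unit, and the test was kept. The fit was checked on simulated data. The 9 genes and all lists were chosen with earlier results of these data known. The 9 genes, LGALS3 and the 3 tested genes of each list with the smallest p are named, except 1 gene that is not reported here but is kept in the counts. Other genes named were chosen after their values were seen. Genes on the lists without a matching symbol were not analysed here. Library sets are libraries that share more than 1000 exactly equal values that are not 0. Genomic spans of GRCr8 were matched for 96.8% of the genes tested. Promoters came from RefSeq, GRCr8. Other calculations used Python 3.11.15 with NumPy 2.4.6 and pandas 2.3.3. The alternatives were other pseudocounts, filters, scalings, blocks and each library left out in turn.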

Additional observations from a re-analysis of the deposited data

How the results depend on the processing

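ABCG1 stayed between 0.36 and 0.55 and CLU between -0.19 and -0.12 on the log2 scale under every alternative run on that scale, and LRP1, ABCA1, APOD and SREBF1 kept their direction. APOE changed sign in 3 alternatives, at -0.08 after quantile normalization and -0.006 without siR-GAL3 replicate 2, the third being the library set block. NR1H2 changed sign in 2 alternatives. Depth is unknown, and siR-GAL3 replicate 2 has no control in its set.

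Against 0 genes with an adjusted p under 0.05 in limma (736 at an unadjusted p), the replicate block gave 6, the library set block 106, and leaving out each library between 0 and 167, the last without siR-GAL3 replicate 2. Without siR-Con replicate 1 there were 17, without siR-Con replicate 3 there were 4, and without siR-GAL3 replicate 1 there was 1. Deviations from the group means had correlations of -0.1701, -0.06989 and 0.04411 between same-numbered libraries. Because siR-GAL3 replicate 2 stood far from the rest and moves its group mean, these correlations cannot decide whether replicate numbers pair the libraries. The 27 genes of the study criteria became 5 with a mean of at least 10, 367 without log transformation and 15 without genes holding a value below 0. The 736 became 1623 with no filter, 121 with a mean of at least 10, 1174 with the library set block and 344 to 1388 with a library left out (350 without siR-Con replicate 2, 344 without siR-Con replicate 3, 1249 without siR-GAL3 replicate 1 and 1388 without siR-GAL3 replicate 2). The 1742 genes without overlap became 2978 with no filter, 286 with a mean of at least 10 and 2194 to 3235 with a library left out. The 9 related genes with an unadjusted p under 0.05 became 2 with a mean of at least 10 and 6 to 15 with a library left out, the highest without siR-GAL3 replicate 2. In counts added after seeing the data, as were the directions of the lists without siR-GAL3 replicate 2, the 2 of the 9 genes without overlap became 1 with a mean of at least 10, which drops ABCG1, and 2 to 5 with a library left out, 5 without siR-Con replicate 1 and 4 without siR-GAL3 replicate 1.

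Of 353 values for the related genes selected by the rule and LGALS3, 342 kept their direction and their side of an adjusted p of 0.05. Under the library set block ABCA3 was 0.021, NCOR1 0.049 and SREBF2 0.001 on the log2 scale, and LPL passed (adjusted p = 0.0276). Without siR-GAL3 replicate 2 ABCA3 was 0.026, NCOR1 0.039 and SREBF2 0.008, and LPL (0.0254), SORT1 (0.0433) and LCAT (0.0347) had an adjusted p under 0.05 in limma. The block gives this library no weight either, so these fits are not separate checks. ABCA8A was -0.029 without siR-GAL3 replicate 3. With a library left out, ABCA3 lay between -0.29 and 0.03, ABCA8A between -0.03 and 0.14, NCOR1 between -0.36 and 0.04 and SREBF2 between -0.14 and 0.01. The cause of these moves was not tested.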
